A study of Mus musculus with 12 samples.

Results

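The genes described here carry fatty acids into mitochondria and break them down there or in peroxisomes, together with the PPAR receptors and a few genes that these receptors are known to drive. They form a list of 33 mouse genes, chosen by name and found in the deposited count table through their Ensembl identifiers. All 33 were among the 53379 rows of the table, and all 33 passed the filter on low counts that left 19252 genes for testing. By role they comprise 5 genes of the carnitine shuttle, 9 of the mitochondrial beta-oxidation spiral, 3 auxiliary enzymes for unsaturated chains, 3 of the electron transfer flavoprotein system, 4 peroxisomal enzymes, 4 receptor and coactivator genes and 5 other PPAR targets.

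Long-chain fatty acids enter mitochondria as carnitine esters, and the spiral then shortens them by repeated dehydrogenation, hydration, dehydrogenation and thiolysis, with electrons passing to the respiratory chain through the electron transfer flavoprotein. PPARs are nuclear receptors for fatty acids that pair with retinoid X receptors, and long-chain polyunsaturated fatty acids such as those of fish oil are among their ligands. In the brain, fatty acid oxidation is known chiefly from astrocytes, while neurons rely mostly on glucose and lactate.

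All mice were wild-type C57BL/6J. Each group had 3 libraries, 12 in all, made from tissue labelled brain and described as injured cortex, collected 6 months after the injury or sham procedure. The fish oil injured group received a fish-oil-supplemented high-fat diet in cycles and rlmTBI, a series of closed head impacts each weaker than a mild injury. The fish oil sham group received the same diet and the sham procedure. The purified injured group had the same injury on a purified control diet given continuously, and the purified sham group had that diet and the sham procedure. The diets differed in fat content, in fish oil and in schedule at once, so the comparison of diets cannot tell these apart. Whether every library came from its own mouse is not stated, so a p-value here speaks only of library-to-library spread, some of which may be technical.

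Total counts ran from 46362158 to 70754854 per library. The 7 markers of cortical excitatory neurons were all tested and summed to 2721 to 5032 CPM (counts scaled by library size), so the defining genes of cortex were present in every library. Some libraries also carried transcripts of neighbouring tissue. The 15 choroid plexus markers, none of them at 0 in any library, summed to 257 to 2827 CPM in fish oil injured, 44.0 to 70.4 in fish oil sham, 25.8 to 55.0 in purified injured and 35.0 to 514 in purified sham libraries. Striatal neuron markers reached 1607 CPM in fish oil sham replicate 2 and 647 CPM in purified sham replicate 4, and were at most 319 CPM elsewhere, and olfactory bulb output neuron markers reached 655 CPM in purified injured replicate 3. Endothelial markers summed to 126 to 158 CPM in fish oil injured and 136 to 166 in fish oil sham libraries, against 177 to 229 in purified injured and 224 to 300 in purified sham libraries. As the tissue was taken in bulk, fewer cells of a type and less RNA per cell cannot be told apart in any value that follows.

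Levels between genes were compared as CPM per kilobase of annotated exon. The best expressed were Acadl (17.0), the long-chain acyl-CoA dehydrogenase, Hsd17b4 (16.4), the peroxisomal D-bifunctional protein, and Acadvl (15.4), the very-long-chain dehydrogenase. They were followed by Etfa (14.5), a subunit of the electron transfer flavoprotein, Acaa2 (13.9), the mitochondrial thiolase, and Ppargc1a (12.1), the coactivator of mitochondrial gene programmes. Dehydrogenases acting on shorter chains were lower per length, with Acadm, for medium chains, at 8.34 and Acads, for short chains, at 1.89 CPM per kilobase. Cpt1c, the neuronal member of the carnitine palmitoyltransferase family, stood at 11.3 and Cpt1a, the mitochondrial entry enzyme, at 4.26 CPM per kilobase. The 3 receptors were among the scarce genes, at 1.63 for Pparg, 1.36 for Ppard and 0.816 for Ppara, next to the cytosolic thioesterase Acot1 at 0.909. The lowest value was 0.548, for Angptl4, a secreted inhibitor of lipoprotein lipase. Lengths count every annotated exon of a gene, so genes with many rare exons are given too low a level.

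**Figure D1:**
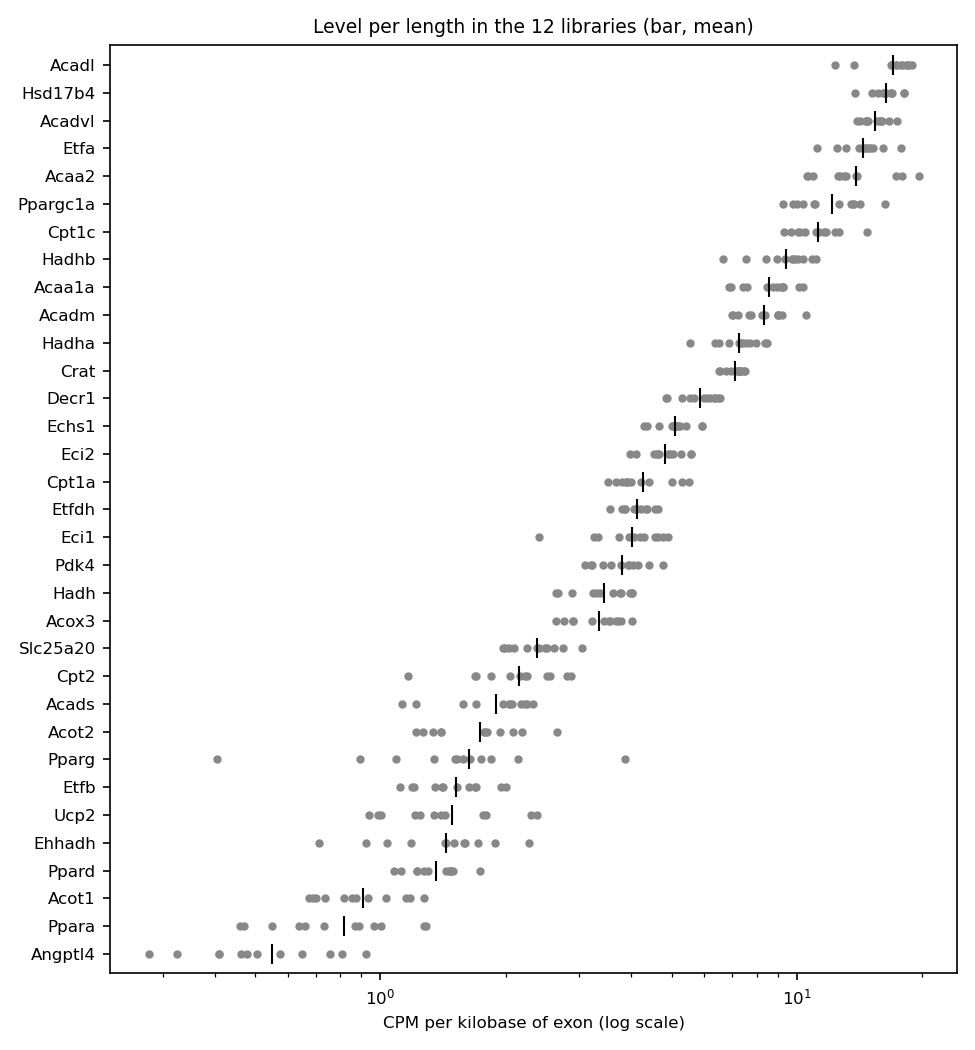
Level of each of the 33 genes in CPM per kilobase of exon (log axis), with a point for each of the 12 libraries and a bar for their mean. Acadl leads at 17.0, Angptl4 is lowest at 0.548, and Pparg spreads most widely.

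The spread across libraries differed widely between the genes. The highest library exceeded the lowest by less than 1.5-fold in 8 genes and by more than 2-fold in 9. Crat, the carnitine acetyltransferase, was the steadiest, with a ratio of 1.15 between its highest and lowest library. Pparg was the most variable, with a ratio of 9.56. It had 4.51, 3.21 and 6.31 CPM in fish oil injured, 1.20, 4.86 and 3.97 in fish oil sham, 4.45, 11.5 and 2.64 in purified injured and 5.45, 5.15 and 4.65 CPM in purified sham libraries. The highest value was in the library with olfactory bulb transcripts and the lowest in fish oil sham replicate 2, the library with the most striatal transcripts.

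**Figure D2:**
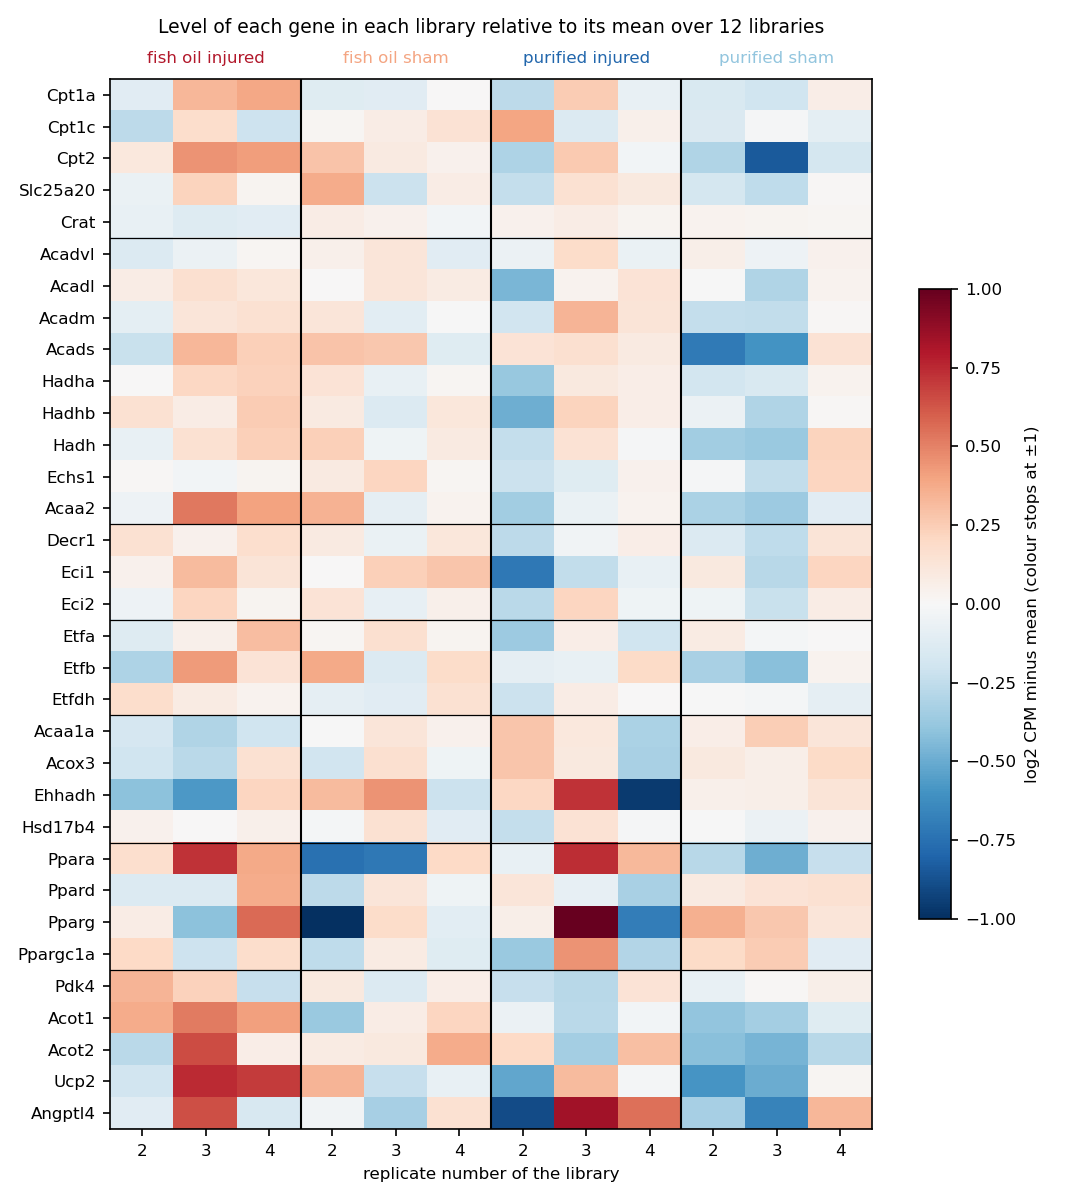
Level of each gene in each library as log2 CPM minus its mean over the 12 libraries. Columns are libraries by group and replicate number, and horizontal lines separate, from the top, the carnitine shuttle, the spiral, the auxiliary enzymes, the electron transfer flavoprotein system, the peroxisomal enzymes, the receptors and coactivator, and the other PPAR targets. Purified injured replicate 2 and purified sham replicate 3 are pale blue to blue across most of the spiral, and the 3 fish oil injured libraries are red in Acot1.

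The question the diets put to these genes is whether brain tissue of mice on the fish oil diet carried more or less of the machinery that burns fatty acids. Averaged over injured and sham tissue, 23 of the 33 genes had a positive log2 fold change of the fish oil diet over the purified diet, with a median of 0.12, against 52.5% of all 19252 genes and a median of 0.01. The spiral had 8 of 9 genes on the positive side with a median of 0.17, the auxiliary enzymes 3 of 3 with 0.16, the electron transfer flavoprotein genes 3 of 3 with 0.14 and the other PPAR targets 4 of 5 with 0.35. The peroxisomal enzymes and the receptors lay the other way, with 1 of 4 genes positive and a median of -0.12 and 1 of 4 with a median of -0.04. None of these differences passed the test: edgeR's quasi-likelihood test with Benjamini-Hochberg adjustment over all genes called 0 of the 33, where it also called 0% of all genes.

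At an unadjusted p under 0.05, 4 of the 33 genes differed between the diets on average, all on the fish oil side, where 2.75% of all genes were on that side and 8.85% in either direction. They were Cpt2, Acaa2, Eci1 and Acot1. DESeq2 called 0 of the 33 after adjustment as well, though 99 of all genes, and placed 5 at an unadjusted p under 0.05. Limma-voom called 0 and placed 4. Choroid plexus, striatal, oligodendrocyte, fibroblast, microglia and astrocyte markers also lay on the fish oil side in this comparison, with 14 of 15, 8 of 8, 10 of 10, 6 of 6, 6 of 6 and 9 of 9 positive and medians of 1.70, 0.81, 0.43, 0.31, 0.17 and 0.09. Pericyte markers lay on the purified side in 7 of 7, with a median of -0.30, olfactory bulb markers in 3 of 3, with -2.40, and endothelial markers in 12 of 12, with -0.60. Some of these averages join unlike tissue states. Choroid plexus markers were positive in 2 of 15 in sham tissue (median -1.45) and in 15 of 15 in injured tissue (4.49). Olfactory bulb markers were positive in 3 of 3 in sham tissue (1.30) and in 0 of 3 in injured tissue (-5.13). The part of the markers other than choroid plexus, striatal and olfactory ones in the diet values was not tested. With choroid plexus, striatal and olfactory marker scores as covariates, 25 of the 33 genes were positive and 0 had an unadjusted p under 0.05, in a fit with fewer residual degrees of freedom. The choroid plexus score was 0.88 to 3.76 in fish oil injured libraries and at most -0.89 in purified injured and fish oil sham ones. The olfactory score was 6.71 in purified injured replicate 3 and at most 0.81 elsewhere. Fits with these covariates therefore cannot tell the fish oil injured group and the choroid plexus score apart.

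**Figure D3:**
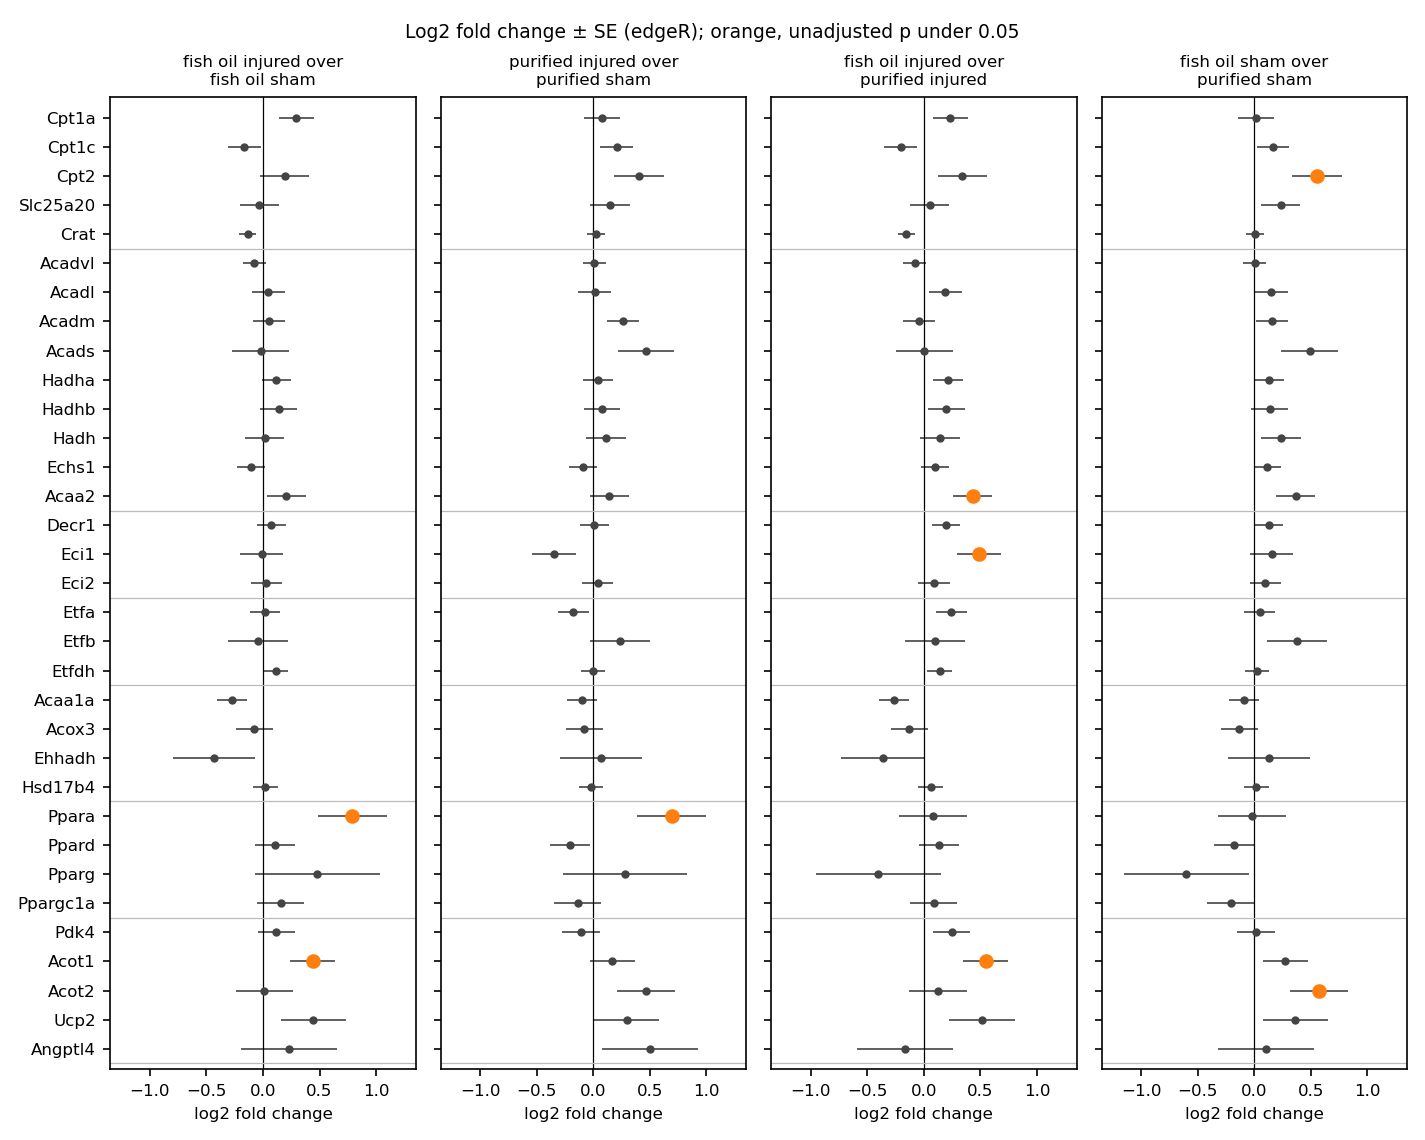
Log2 fold change with its standard error for each gene in the 4 pairwise comparisons, from edgeR's fit to all 12 libraries. Orange points had an unadjusted p under 0.05, and none passed adjustment. Ppara is orange in both comparisons of injured with sham tissue, and Acot1 in the comparisons of fish oil injured with fish oil sham and with purified injured tissue.

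Acaa2, which encodes the thiolase that ends each turn of the spiral, had 19.9, 29.7 and 27.2 CPM in fish oil injured and 26.3, 19.3 and 21.1 in fish oil sham libraries, against 16.2, 19.6 and 21.1 in purified injured and 16.5, 16 and 19.1 CPM in purified sham libraries. All 3 fish oil sham libraries exceeded the purified sham ones, while the injured groups overlapped. The average difference between the diets was 0.40 ± 0.12 (log2, SE; unadjusted p = 0.0069, edgeR adjusted p = 0.467). It was 0.43 ± 0.17 in injured and 0.37 ± 0.17 in sham tissue, and the sham value was 0.24 without fish oil sham replicate 2. With choroid plexus, striatal and olfactory marker scores as covariates the average was 0.18 and the difference in injured tissue 0.02, while without fish oil sham replicate 2 and purified injured replicate 3 they were 0.35 and 0.45. As the choroid plexus score did not overlap between the injured groups, the value of 0.02 cannot separate diet from that score.

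Cpt2 encodes the inner-membrane transferase that turns acylcarnitines back into acyl-CoA (chr4:107903981-107923610, minus strand). It had 5.38, 6.84 and 6.70 CPM in fish oil injured and 6.10, 5.31 and 5.16 in fish oil sham libraries, against 4.04, 6.01 and 4.90 in purified injured and 4.07, 2.79 and 4.42 CPM in purified sham libraries. The sham groups did not overlap, and the injured groups did. The difference was 0.45 ± 0.15 on average (adjusted p = 0.474), 0.55 ± 0.22 in sham and 0.34 ± 0.22 in injured tissue. Purified sham replicate 3 was the lowest of the 12 libraries, and the sham difference was 0.39 without it. Average diet differences ran from -0.04 for Acadvl to 0.25 for Acads in the rest of the spiral, from 0.08 for Etfdh to 0.24 for Etfb in the flavoprotein system and from -0.18 for Acaa1a to 0.04 for Hsd17b4 among the peroxisomal genes. The other shuttle genes gave smaller average differences, 0.12 ± 0.11 for Cpt1a, 0.14 ± 0.12 for the carnitine-acylcarnitine carrier Slc25a20, -0.02 ± 0.10 for Cpt1c and -0.08 ± 0.05 for Crat.

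Eci1 encodes an isomerase that moves double bonds of unsaturated chains into the position the spiral requires. It had 8.63, 10.4 and 9.16 CPM in fish oil injured and 8.42, 9.89 and 10.1 in fish oil sham libraries, against 5.10, 7.07 and 7.94 in purified injured and 8.96, 6.91 and 9.71 CPM in purified sham libraries. The purified injured libraries were low, and all 3 lay below the fish oil injured ones, whereas the sham groups overlapped. The difference was 0.49 ± 0.19 in injured tissue (unadjusted p = 0.0267, adjusted p = 0.426) and 0.32 ± 0.14 on average. Purified injured replicate 2 was the lowest library, and the difference in injured tissue was 0.33 without it. The related genes Decr1 and Eci2 had average differences of 0.16 and 0.09.

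Acot1 and Acot2 are neighbours on chromosome 12 and encode a cytosolic and a mitochondrial acyl-CoA thioesterase, both textbook PPAR alpha targets in liver and heart. Acot1 (chr12:84009490-84018371, plus strand) had 4.51, 4.98 and 4.62 CPM in fish oil injured and 2.70, 3.66 and 4.03 in fish oil sham libraries, against 3.35, 2.89 and 3.42 in purified injured and 2.64, 2.74 and 3.21 CPM in purified sham libraries. The 3 fish oil injured libraries were the highest of all 12 and overlapped no other group. The difference between the diets was 0.55 ± 0.20 in injured tissue (unadjusted p = 0.0181, adjusted p = 0.408) and 0.41 ± 0.14 on average (adjusted p = 0.471). With the choroid plexus, striatal and olfactory marker scores as covariates the injured difference was 0.50.

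Acot2 (chr12:83987861-83993873, plus strand) had 3.07, 5.82 and 3.89 CPM in fish oil injured and 3.92, 3.96 and 4.79 in fish oil sham libraries, against 4.25, 2.93 and 4.56 in purified injured and 2.78, 2.68 and 3.06 CPM in purified sham libraries. The purified sham group was low and did not overlap the fish oil sham group, whereas the injured groups did overlap. The difference in sham tissue was 0.57 ± 0.26 (unadjusted p = 0.047, adjusted p = 0.934).

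The transcripts of Acot1 and Acot2 share identical stretches. Of the 100-base windows of Acot2, 17.1% also occurred in another gene, and of those of Acot1, 12.4% did. Their longest identical coding run has 273 bases and lies at chr12:84017006-84017278 in Acot1 and at chr12:83992728-83993000 in Acot2 (GRCm38, plus strand, read from GENCODE M21 transcripts). It is shown because read pairs that fall wholly within it cannot be assigned to either gene. How such pairs were counted was not stated, so the levels of Acot1 and Acot2 are uncertain to that extent.
Acot1 and Acot2: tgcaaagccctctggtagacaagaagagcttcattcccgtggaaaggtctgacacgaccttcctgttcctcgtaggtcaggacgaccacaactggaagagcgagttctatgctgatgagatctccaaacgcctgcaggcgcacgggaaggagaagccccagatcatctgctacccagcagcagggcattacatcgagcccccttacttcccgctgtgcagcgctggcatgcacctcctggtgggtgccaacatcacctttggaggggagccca

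Ucp2, an uncoupling protein of the inner mitochondrial membrane, had 8.68, 16.6 and 16.1 CPM in fish oil injured and 12.5, 8.45 and 9.39 in fish oil sham libraries, against 6.89, 12.3 and 9.76 in purified injured and 6.58, 7.02 and 10.01 CPM in purified sham libraries. Fish oil injured replicates 3 and 4 were high, but the groups overlapped. Its average difference between the diets was 0.44 ± 0.20 (unadjusted p = 0.0541). Pdk4, the kinase that switches off pyruvate dehydrogenase, and Angptl4 gave 0.13 ± 0.12 and -0.03 ± 0.30.

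**Figure D4:**
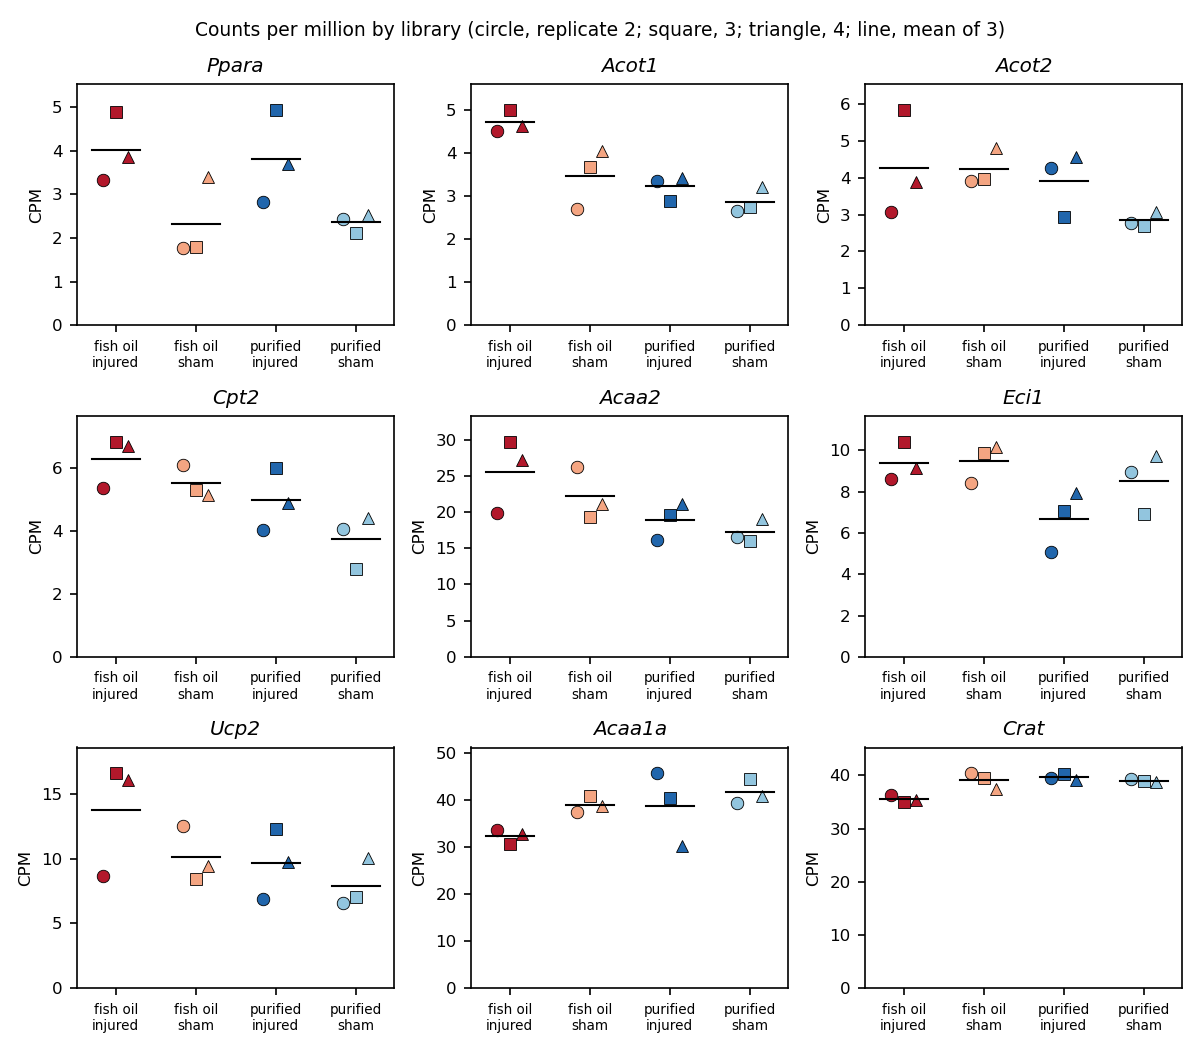
CPM of 9 genes in each library, by group, with the mean of 3 libraries as a line and the replicate number as the symbol. Ppara lies higher in the injured groups on both diets, Acot1 is highest in the fish oil injured libraries, and Crat is lowest there.

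By tissue state, the diets gave 27 of 33 positive differences in sham tissue with a median of 0.13, and 24 of 33 in injured tissue with a median of 0.10, against 51.1% and 50.8% of all genes and medians of 0.01. The receptors gave 0.03 ± 0.21 for Ppara, -0.02 ± 0.13 for Ppard and -0.50 ± 0.39 for Pparg on average. All 9 spiral genes were on the fish oil side in sham tissue and 7 of 9 in injured tissue. EdgeR called 0 of the 33 in each, as of all genes (0%). At an unadjusted p under 0.05 it placed 2 in sham tissue (Cpt2 and Acot2, where 1.74% of all genes were on the fish oil side and 3.69% in either direction) and 3 in injured tissue (Acaa2, Eci1 and Acot1, where 3.89% were on that side and 10.7% in either direction, so that 3 of 33 is no larger a share than that of all genes in either direction). DESeq2 placed 2 and 4 and called 0 of the 33 in each. The groups did not overlap for 4 genes in sham tissue, Cpt1c, Cpt2, Acaa2 and Acot2, all with fish oil above, where 13.8% of all genes did not overlap in either direction. In injured tissue they did not overlap for 3 genes, Eci1 and Acot1 with fish oil above and Crat with fish oil below, where 11.6% of all genes did not. These counts of genes without overlap are near the background shares. Without fish oil sham replicate 2 and purified injured replicate 3, the counts of positive differences were 26 in sham and 27 in injured tissue, and 1 and 7 genes had an unadjusted p under 0.05. With the 3 marker scores as covariates these counts were 2 in sham and 0 in injured tissue. Single libraries moved the medians as well. In sham tissue the median was 0.04, with 24 positive and 0 at an unadjusted p under 0.05, without purified sham replicate 3, and 0.20 without purified sham replicate 4. In injured tissue it was 0.03, with 20 positive, without purified injured replicate 2.

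Injury at 6 months was compared with sham within each diet to ask whether repeated weak impacts left a lasting trace in these genes. Of the 33 genes, Ppara had the smallest unadjusted p by edgeR on each diet and on average. Ppara encodes the receptor that drives fatty acid oxidation in liver and heart (chr15:85734983-85802819, plus strand), and was scarce, with 93 counts in its lowest library. It had 3.32, 4.89 and 3.85 CPM in fish oil injured libraries, against 1.77, 1.80 and 3.41 in fish oil sham libraries. On the purified diet it had 2.82, 4.93 and 3.70 CPM in injured libraries, against 2.45, 2.11 and 2.53 in sham libraries. All 3 purified injured libraries lay above the purified sham ones, and on fish oil a single sham library, replicate 4, reached into the injured range.

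The difference between injured and sham tissue in Ppara was 0.79 ± 0.30 on fish oil, 0.69 ± 0.30 on the purified diet and 0.74 ± 0.21 on average (log2, SE; 3 libraries against 3 on each diet). The average corresponded to a 1.67-fold level and an unadjusted p of 0.0050, but edgeR's adjusted p was 0.991 and DESeq2's was 0.323. With any library left out in turn the average stayed between 0.63 and 0.93, and it was 0.55 without fish oil sham replicate 2 and purified injured replicate 3. On fish oil it was 1.17 without fish oil sham replicate 4. The 3 marker scores as covariates gave an average of 0.54. On the purified diet the value was 0.48 without purified injured replicate 3 and 0.46 with the covariates. Oligodendrocyte markers were on the sham side in 10 of 10 on average, with a median of -0.48, and the part of that in the Ppara values was not tested.

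The other receptors were not tested against Ppara. Pparg, the receptor best known from fat cells, had a difference of 0.48 ± 0.55 on fish oil and 0.28 ± 0.55 on the purified diet, and Ppard, the broadly expressed receptor, had 0.10 ± 0.18 and -0.21 ± 0.18. Ppargc1a had 0.16 ± 0.21 and -0.14 ± 0.21. The 5 other PPAR targets all had a positive average difference after injury, with a median of 0.30, among them 0.37 ± 0.20 for Ucp2, 0.37 ± 0.30 for Angptl4 and 0.30 ± 0.14 for Acot1, while Pdk4 stood at 0.00 ± 0.12. Of 12 further PPAR targets outside the 33, 8 were tested and 4 were positive on average, with a median of 0.00. On fish oil 2 of these 8 were positive, with a median of -0.16. On fish oil, Acot1 in injured tissue lay above sham tissue in every library, by 0.44 ± 0.20 (unadjusted p = 0.0471, adjusted p = 0.999), and by 0.28 without fish oil sham replicate 2.

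Over the whole list, 22 of 33 genes had a positive difference between injured and sham tissue on fish oil with a median of 0.05, and 23 of 33 on the purified diet with a median of 0.07, against 49% and 50.6% of all genes and medians of -0.01 and 0.00. EdgeR called 0 of the 33 in each and 0% of all genes. It placed 2 genes at an unadjusted p under 0.05 on fish oil, Ppara and Acot1, where 1.58% of all genes were on the injured side and 3.48% in either direction, and 1 on the purified diet, Ppara, where 3.93% were on that side and 6.5% in either direction. On average over the diets 24 of 33 were positive, against 50.3% of all genes, with a median of 0.06. EdgeR called 0 of 33 and 0% of all genes there and placed 1, Ppara, where 1.89% were on the injured side and 3.6% in either direction. The 1 of 33 on the purified diet and on average was no larger a share than that of all genes in either direction. DESeq2 called 0 of the 33 in each and placed 3, 1 and 2. On fish oil the groups did not overlap for 3 genes, Acot1 above and Crat and Acaa1a below, where 10.2% of all genes did not, and on the purified diet for Ppara alone, where 11.6% did not. Neither count without overlap was a larger share than that of all genes. Choroid plexus markers were on the injured side on fish oil in 15 of 15, each with an unadjusted p under 0.05, and with the 3 marker scores as covariates 17 of the 33 genes were positive there, with a median of 0.00. The purified median did not hold: 15 of 33 genes were positive without purified injured replicate 3, with a median of -0.03, and 13 of 33 with the covariates, with -0.04.

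None of the mitochondrial enzymes passed the test between injured and sham tissue, which does not show that they were unchanged. Average differences in the spiral ran from -0.10 for Echs1 to 0.22 for Acads. By diet they ran from -0.11 to 0.21 on fish oil and from -0.09 to 0.46 on the purified diet. Acads had 4.61, 4.68 and 4.46 CPM in purified injured libraries, against 2.56, 2.77 and 4.63 in purified sham libraries, so that replicate 4 of the sham group lay within the injured range. The difference was 0.46 ± 0.25 and became 0.78 without that library. Cpt2 on the purified diet differed by 0.41 ± 0.22, and by 0.24 without purified sham replicate 3 and 0.26 without purified injured replicate 3.

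The peroxisomal enzymes had differences below 0 in 3 of 4 genes on both diets, with medians of -0.17 on fish oil and -0.05 on the purified diet. Acaa1a, the peroxisomal thiolase, had 33.5, 30.6 and 32.7 CPM in fish oil injured libraries, against 37.5, 40.9 and 38.7 in fish oil sham libraries. On the purified diet it had 45.7, 40.4 and 30.3 CPM in injured libraries, against 39.5, 44.6 and 40.9 in sham libraries. The fish oil groups did not overlap, and the purified groups did. The difference was -0.27 ± 0.13 on fish oil (unadjusted p = 0.0637) and -0.10 ± 0.13 on the purified diet. Between the diets in injured tissue it was -0.26 ± 0.13, and -0.43 without purified injured replicate 4, the lowest library (adjusted p = 0.0919). Acaa1a overlaps Myd88 and resembles Acaa1b, and 9.72% of its 100-base windows also occurred in another gene.

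Crat had 36.4, 35.0 and 35.3 CPM in fish oil injured and 40.4, 39.4 and 37.5 in fish oil sham libraries, against 39.5, 40.3 and 39.1 in purified injured and 39.3, 38.9 and 38.8 CPM in purified sham libraries. The fish oil injured libraries were the lowest of all 12. The differences were small, -0.14 ± 0.08 against fish oil sham and -0.16 ± 0.08 against purified injured libraries, and these comparisons share the fish oil injured libraries. Choroid plexus markers summed to 257 to 2827 CPM in those libraries and to at most 514 CPM in the others, and Crat was inversely related to the choroid plexus score, with r of -0.850 and rho of -0.629 (adjusted permutation p = 0.0735 and 0.235), r of -0.491 without the 2 farthest libraries and -0.312 within groups. With choroid plexus, striatal and olfactory marker scores as covariates the differences were -0.10 against fish oil sham and -0.10 against purified injured libraries. The choroid plexus score overlapped in neither comparison, so group and score cannot be told apart in these values.

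The interaction, the injury difference on fish oil minus that on the purified diet, was tested for each gene. It was positive in 18 of 33 genes, against 47.6% of all genes. EdgeR called 0 of 33 and 0% of all genes, and 0 of the 33 had an unadjusted p under 0.05, where 5.76% of all genes did. DESeq2 and limma-voom also placed 0 of the 33 at an unadjusted p under 0.05, while calling 21 and 0 of all genes. The smallest unadjusted p was 0.099 for Cpt1c, with a value of -0.37 ± 0.21. It had 52.2, 70.8 and 54.3 CPM in fish oil injured and 63.5, 65.9 and 69.3 in fish oil sham libraries, against 82.5, 56.9 and 65.0 in purified injured and 56.5, 62.2 and 58.6 CPM in purified sham libraries. Both injured groups were spread widely and the sham groups narrowly. The value was -0.21 without purified injured replicate 2 and -0.75 with the 3 marker scores as covariates. Next came Crat with -0.16 ± 0.11 and Acads with -0.48 ± 0.35, which was -0.80 without purified sham replicate 4. For Ppara the interaction was 0.10 ± 0.43.

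Across the 12 libraries 3 pairs of genes were compared, 2 of them encoding partners in a complex and 1 the neighbouring thioesterases. Hadha and Hadhb, the subunits of the mitochondrial trifunctional protein, were correlated, with Pearson's r of 0.879 and Spearman's rho of 0.748 (permutation p = 3.8e-04 and 0.0068, adjusted over the 3 pairs 0.00114 and 0.0204). Without the 2 libraries farthest from the median r was 0.795, and within groups it was 0.834. Among all 528 pairs of the 33 genes the median r was 0.265, 29 pairs had r over 0.8, and 4 had a higher r than this pair, among them Hadha with Ucp2 (0.913). Acot1 and Acot2 had r of 0.606 and rho of 0.636 (adjusted permutation p = 0.0588 and 0.0448), with 0.435 without the 2 farthest libraries. Etfa and Etfb, whose products form the flavoprotein dimer, had r of 0.124 and rho of 0.035 (adjusted permutation p = 0.705 and 0.923). Etfb had the smallest counts of that pair, with 61 in its lowest library, and 35.8% of its 100-base windows also occurred in another annotated gene.

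Hadha and Hadhb lie head to head on chromosome 5, with RefSeq start sites 273 bases apart. Their windows of 250 bases before to 50 after the start site share 228 bases, so by these start sites a single stretch of DNA lies upstream of both. GENCODE M21 extends Hadha to position 30155162, inside that stretch, so by that annotation part of it lies within Hadha. The window of Hadhb at chr5:30155003-30155302 (RefSeq, GRCm38.p6, plus strand) is shown because the windows overlap, with the bases that also belong to the window of Hadha in capitals.
Hadhb: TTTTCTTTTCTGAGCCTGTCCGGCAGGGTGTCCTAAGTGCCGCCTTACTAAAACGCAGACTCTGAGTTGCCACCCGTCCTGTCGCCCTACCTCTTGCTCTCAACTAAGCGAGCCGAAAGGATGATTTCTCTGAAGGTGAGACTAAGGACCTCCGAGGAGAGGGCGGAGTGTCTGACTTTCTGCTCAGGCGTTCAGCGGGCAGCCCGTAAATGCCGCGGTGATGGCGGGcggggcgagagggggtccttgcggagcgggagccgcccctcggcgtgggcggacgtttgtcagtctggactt

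The windows of 28 of the 33 genes were searched on both strands for PPAR response elements, a direct repeat of AGGTCA separated by a single base. AGGTCANAGGTCA occurred in 0 of 28, as in 0.0396% of all 32851 windows, and AGGNCANAGGNCA, which includes it, in 0 of 28 and 0.381%. The estrogen-related receptor site TCAAGGTCA occurred in 0 of 28 and in 0.423%. The single motif AGGTCA, which each of these except the loose repeat contains, occurred in 6 of 28 (21.4%: Acadm, Pparg, Cpt1c, Echs1, Acadvl and Cpt1a), against 16.3% of all windows. A gene counted if any of its windows matched, so the share of genes and the share of windows are not strictly alike. Windows of Acaa2, Crat, Decr1, Hsd17b4 and Angptl4 were not searched. The absence of a match says only that these letters are not in these windows.

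The level of some of the genes rose with the astrocyte markers across the 12 libraries. The astrocyte score, the mean over 9 markers of log2 CPM relative to each marker's mean, was related to every gene, as were scores for the other marker lists, 363 relations in all. Angptl4 had r of 0.911 and rho of 0.867 with it (adjusted permutation p = 0.00726 and 0.0617), and r of 0.837 without the 2 farthest libraries and 0.951 within groups. Its counts were few, with 50 in its lowest library. Hadhb followed with r of 0.872 (adjusted permutation p = 0.0236; rho 0.741, adjusted 0.183), Hadha with 0.848 (0.0417; rho 0.699, adjusted 0.203) and Eci2 with 0.833 (0.0417; rho 0.720, adjusted 0.190). Without the 2 farthest libraries r was 0.635, 0.629 and 0.621 for these. An r above 0.6 was found for 15 of the 33 genes (45.5%) and 6 of the 9 spiral genes (66.7%), against 6.29% of all genes, and for 0 of the 4 peroxisomal genes, of which Acaa1a had -0.651. The genes also moved with each other, with r over 0.8 in 29 of 528 pairs, so these counts are not of independent genes.

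**Figure D5:**
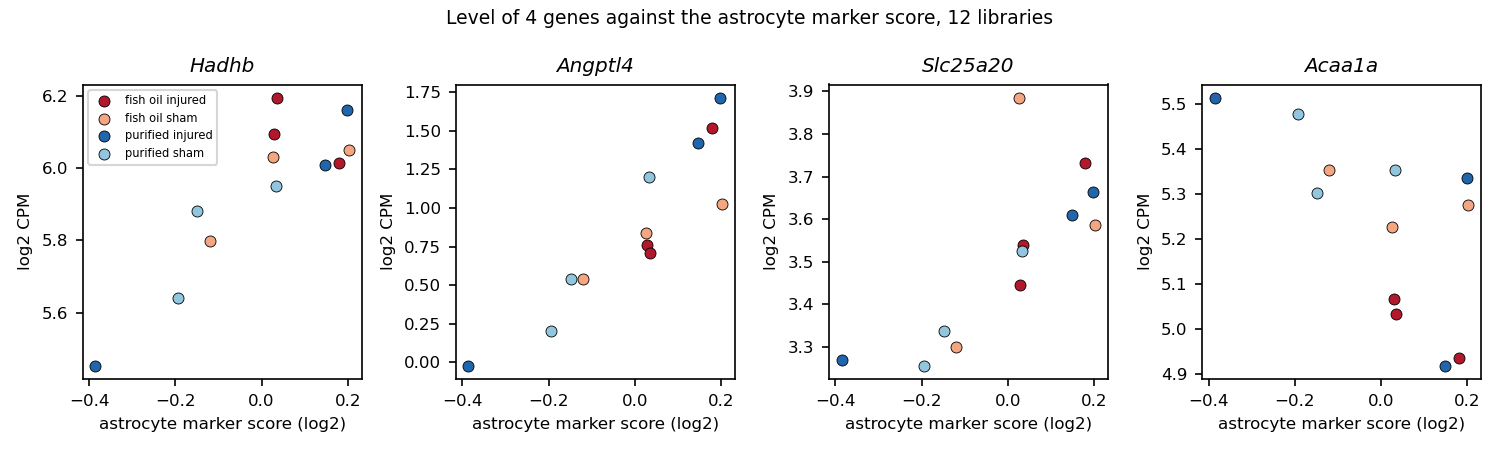
Log2 CPM of 4 genes against the astrocyte marker score in the 12 libraries, coloured by group. Hadhb and Angptl4 climb with the score (r of 0.872 and 0.911), Slc25a20 does so less tightly (0.767), and Acaa1a runs the other way (-0.651). Purified injured replicate 2 has the lowest score.

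Scores of other cell types gave 3 relations past adjustment, among further ones of similar size that did not pass, such as Hadh with microglia (r of 0.768, adjusted permutation p = 0.107) and Acot2 with endothelial markers (-0.762, 0.117). Slc25a20 was inversely related to the cortical excitatory neuron score, with r of -0.872 and rho of -0.923 (adjusted permutation p = 0.0206 and 0.0145), and r of -0.826 without the 2 farthest libraries. Etfb followed the microglia score, with r of 0.932 and rho of 0.902 (adjusted permutation p = 0.00907 and 0.0327), and r of 0.910 without the 2 farthest. Etfb had 61 counts in its lowest library, and 35.8% of its 100-base windows also occurred in another gene. Acads also followed the microglia score, with r of 0.819 (adjusted permutation p = 0.0451; rho 0.671, adjusted 0.204), and r of 0.552 without the 2 farthest. The astrocyte markers summed to 7285 to 7972 CPM in fish oil injured, 6327 to 7886 in fish oil sham, 5900 to 7549 in purified injured and 6321 to 7589 in purified sham libraries, so the groups overlapped. The part of these cell types in the diet and injury differences was not tested.

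A wider set of 70 pathway genes, covering uptake and activation, further mitochondrial and peroxisomal enzymes, ketone bodies, PPAR partners and further PPAR targets, gave the same count of adjusted calls. EdgeR tested 65 of them and called 0 in each of the 7 comparisons. Cpt1b, Fabp4, Cyp4a10, Cyp4a14 and Fgf21 were too scarce to test. At an unadjusted p under 0.05 the set had 1 gene for injury on fish oil, 4 for injury on the purified diet, 2 for diet in sham tissue, 6 for diet in injured tissue, 2 for the average injury difference, 0 for the average diet difference and 4 for the interaction. Over all genes the shares in these comparisons were 3.48%, 6.5%, 3.69%, 10.7%, 3.6%, 8.85% and 5.76%. The set of 65 had a smaller share than all genes in every comparison except the interaction, where its 4 of 65 was close to that of all genes.

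Among these, Nrip1, a corepressor of nuclear receptors, had 64.8, 70.4 and 67.7 CPM in fish oil injured libraries, against 48.3, 54.1 and 60.2 in fish oil sham libraries. The groups did not overlap, and the difference was 0.32 ± 0.11 (unadjusted p = 0.0133, adjusted p = 0.999). Rxra, the partner of the PPARs on DNA, had 35.1, 42.3 and 35.8 CPM in fish oil injured libraries, against 31.4, 18.1 and 34.1 in purified injured libraries. They did not overlap, the difference was 0.44 ± 0.19 (adjusted p = 0.457), and the lowest value was in the library with olfactory bulb transcripts.

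Fabp7, the fatty acid binding protein of radial glia and astrocytes, had 11.5, 199 and 39.3 CPM in purified injured libraries, against 12.8, 10.9 and 14.5 in purified sham libraries. The 199 CPM were in the library with olfactory bulb transcripts, and the fitted difference of 2.70 ± 0.81 (adjusted p = 0.763) rests largely on it. Acsl3, an acyl-CoA synthetase, had 192, 199 and 213 CPM in purified injured libraries, against 237, 232 and 267 in purified sham libraries. Here the groups did not overlap, and the difference was -0.29 ± 0.11 (unadjusted p = 0.0245, adjusted p = 0.763). In the diet comparison of sham tissue, Amacr, a racemase of branched-chain acyl-CoAs, had 6.88, 6.06 and 6.65 CPM in fish oil sham libraries, against 5.09, 4.68 and 4.86 in purified sham libraries, a difference of 0.42 ± 0.18 with no overlap (adjusted p = 0.934).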

How the data were processed

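RNA sequencing libraries were prepared with a strand-preserving kit from total RNA and read as pairs, per the labels' protocols. Tools named in the submitters' processing notes are STAR (2.5.2a) and featureCounts (1.4.3-p1), and the build is mm10. Which annotation, strand setting and rule for multiply mapping reads applied was not stated. The authors deposited raw counts per gene, with totals of 46362158 to 70754854. Values of 2 (20514) outnumbered values of 1 (11222), so both mates of a pair may have been counted.

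The genes, roles and lists were chosen with earlier results of these data known. Of the 33 identifiers, 25 matched GENCODE M21 with version, which gave positions and exon lengths, and the others matched without version. Genes were kept with filterByExpr (minimum count 10), scaled by TMM and fitted with edgeR 4.0.16 (glmQLFit and glmQLFTest, robust) to all 12 libraries (4 group means, 8 residual degrees of freedom), with Benjamini-Hochberg adjustment over 19252 genes and a threshold of 0.05. The 7 comparisons were injury on each diet, diet in each tissue state, both averages and the interaction. SEs come from the F statistic. Genes given by library were those with an unadjusted p under 0.05 or among the 3 smallest in a comparison, genes of the same role, and up to 2 of each other list. Correlations used 100000 permutations over all 12 libraries regardless of group, so group differences shared by both sides enter their p-values. The fit was also run on simulated counts with changes larger than any that the 33 genes showed in the main fit, so recovery of changes this small was not examined. Alternatives used DESeq2 1.42.0 and limma 3.58.1 (voom), other scalings, filters, covariates, a replicate block and libraries left out. Each library counted once. Replicates of a group differed beyond sampling noise, which does not show that each came from its own mouse. With 3 libraries a group, an exact test of a single gene cannot go below a p of 0.1 and was not used.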

Additional observations from a re-analysis of the deposited data

How the results depend on the processing

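Of the 33 genes, 0 were called in each of the 7 comparisons under each of the 25 alternatives that applied to it, and the lowest adjusted p of any was 0.0919, for Acaa1a between the diets in injured tissue without purified injured replicate 4. Sizes moved more than calls, which had no gene near the threshold to lose: with marker scores as covariates Acaa2 between the diets in injured tissue was 0.02, against 0.43, and the Cpt1c interaction -0.75, against -0.37. Values with these covariates cannot tell the fish oil injured group and the choroid plexus score apart. The 165 medians moved by less than the spread between libraries (SD 0.128). That spread was no smaller than any of the 7 main medians, so staying within it does not show that a median held. Leaving out each library in turn gave medians of 0.03 to 0.10 for injury on fish oil, -0.03 to 0.15 for injury on the purified diet, 0.04 to 0.20 for diet in sham tissue, 0.03 to 0.19 for diet in injured tissue, 0.03 to 0.11 for the average injury difference, 0.08 to 0.16 for the average diet difference and -0.07 to 0.07 for the interaction, so those of injury on the purified diet and of the interaction have no fixed sign. Whether replicate numbers pair the libraries was checked: of 18 same-numbered pairs of libraries 3 had correlated deviations above 0.1, with a range of -0.37 to 0.28, so the replicate number showed no common pairing. In every group, replicates 3 and 4 shared the first number of their library name, and what that number stands for is not stated. A limma-voom fit with a correlation within that number (estimated at -0.256) called 0 of the 33 in each comparison. Its medians were 0.05, 0.05, 0.12, 0.10, 0.06, 0.11 and 0.03 in the order above. With the replicate block the count of called genes was 0 in each comparison and the medians were 0.05, 0.04, 0.12, 0.12, 0.06, 0.12 and 0.05 in the order above. Calls over the whole table depended on the tool, with 0 by edgeR and 3 to 186 by DESeq2 in a comparison, and on single libraries, with 83 by edgeR for the diets in injured tissue without purified injured replicate 4, 14 without fish oil injured replicate 2, and 7 for injury on fish oil without the same library. Each group has 3 libraries, some of which carry transcripts of neighbouring tissue, and scarce genes add counting error, as with the 61 counts of Etfb in its lowest library.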
